A study of Homo sapiens with 12 samples.

Results

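The genes described here are 39 components of the human centromere and kinetochore, taken by gene symbol from the deposited count table of HCT116 cells cultured with or without cystine. They are 39 of 60671 named genes in that table, and each of the 39 was found and passed the filter on low counts, as did 16994 genes in all. The groups were HCT116 cells held in DMEM with 0 mM cystine for 48 h, the control cells of the same time in full DMEM, cells deprived for 24 h, and their control cells, with 3 samples in each group. HCT116 is an established human colorectal carcinoma line. Its genotype is given as WT in every group, and all media held 10% fetal bovine serum and antibiotics. Cystine is the disulfide-linked dimer of cysteine, and cells import it as a source of cysteine. According to the labels the deprived cells were washed and given fresh warm medium while the control cells stayed in theirs, so each comparison of media includes that step. Whether the samples of a group were separate cultures is not stated in the labels; each p-value therefore reflects the variation among these particular samples, and that variation may be technical only.

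The centromere is the chromosomal site at which sister chromatids are held and at which the kinetochore is built. Its nucleosomes carry CENP-A, a histone H3 variant that is replenished once per cell cycle by a dedicated chaperone. A constitutive inner kinetochore binds these nucleosomes, and an outer layer assembled in mitosis (the Knl1, Mis12 and Ndc80 complexes) binds spindle microtubules and recruits the spindle checkpoint. In dividing cells many of these genes are transcribed mainly late in the cell cycle, in G2 and mitosis, while others are transcribed at every stage.

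Total estimated counts per sample lay between 19146108 and 24179533, and the estimated counts of the 39 genes lay between 30 and 12963 per sample. Levels below are CPM, counts scaled to a common library size, with TMM scaling, a normalization that assumes most genes do not change. Of 10 colon epithelial markers, 1 was at 0 in all 12 samples and the others reached up to 2500 CPM. All 5 leukocyte markers stayed below 1 CPM, with 2 of them at 0 in every sample, as did 3 of 4 endothelial and 5 of 6 fibroblast markers. The summed colon epithelial markers spanned 5250 to 5860 CPM in deprived cells and 4510 to 4980 CPM in control cells at 48 h, and 5510 to 5670 CPM in deprived cells and 4080 to 4510 CPM in control cells at 24 h. The summed fibroblast markers, nearly all from the single gene above 1 CPM, spanned 20.4 to 22.6 CPM in deprived cells and 44.6 to 49.4 CPM in control cells at 48 h, and 16.3 to 20.7 CPM in deprived cells and 32.3 to 34.3 CPM in control cells at 24 h. The part of these shifts in the results below was not tested.

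After 48 h without cystine, 33 of the 39 genes were lower than in control cells, 4 were higher and 2 did not pass the threshold (edgeR's quasi-likelihood test, Benjamini-Hochberg adjusted p under 0.05 over all 16994 genes). Of all genes tested, 34.9% were called lower and 33.5% higher in the same comparison. The 33 genes included CENPF, a corona protein that was 24.9-fold lower, CENPA itself, 17.7-fold lower, and CENPE, a kinetochore motor, 16.7-fold lower. The 4 higher genes were MIS12, ZW10, BOD1 and PMF1, each by less than 2-fold. The median log2 fold change over the 39 genes was -1.14, a 2.2-fold lower level, against -0.02 over all genes tested. By at least 2-fold, 23 of the 39 were lower, against 15.3% of all genes. By at least 4-fold, 13 were lower, against 5.19%. Summed over the 39 genes, the level was 524 to 560 CPM in deprived cells and 1530 to 1660 CPM in control cells. CENPF alone gave a mean of 19.2 CPM of the sum in deprived cells and 478 CPM in control cells. In RNA from a whole culture, fewer cells at the stage that makes these transcripts and less of each transcript per cell cannot be told apart.

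At 24 h the same comparison gave another picture. Here 19 of the 39 genes were higher in deprived cells, 5 were lower and 15 did not pass the threshold. Of all genes tested, 28.8% were called higher and 26.9% lower. Calls in either direction came to 24 of 39 genes, a share near the 55.6% of all genes. The median log2 fold change was 0.21, against -0.01 over all genes. Only SKA1, CENPL and NDC80 were higher by at least 2-fold, against 4.84% of all genes. The calls of CENPC, CENPW, NSL1, SGO1 and SPC24 were each lost when a single sample was left out. Those of CENPW, SGO1 and ZWINT were lost under upper-quartile scaling and under library totals alone, and that of CENPW also by DESeq2. The summed level was 1680 to 1770 CPM in deprived cells and 1520 to 1570 CPM in control cells. Within these sums CENPF averaged 310 CPM in deprived cells and 452 CPM in control cells.

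The effect at 48 h was lower than that at 24 h for 32 of the 39 genes by the test of the difference itself, against 19.2% of all genes tested, and higher for 0 genes, against 16.4% (edgeR's quasi-likelihood test; 0 genes also at an unadjusted p under 0.05 and by DESeq2). The 7 genes without a called difference were CENPP, CENPX, MIS12, NSL1, PMF1, ZW10 and BOD1. The median difference was -1.52 on the log2 scale, against -0.01 over all genes. In all, 15 of the 39 genes were lower at 48 h after being higher at 24 h: CENPA, CENPH, CENPK, CENPL, CENPN, CENPO, CENPW, HJURP, NDC80, SGO1, SKA1, SKA2, SKA3, SPDL1 and ZWINT. Of all genes tested, 2.08% (353 genes) had that pattern. For CENPW, SGO1 and ZWINT the 24 h call was lost under upper-quartile scaling and under library totals alone. Another 14 genes were lower at 48 h and not called at 24 h, and CENPC, CENPF, CENPX and SPC24 were lower at both times. MIS12, ZW10, BOD1 and PMF1 were higher at both times, NSL1 was called at 24 h alone, as lower, and CENPP was called at neither.

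**Figure D1:**
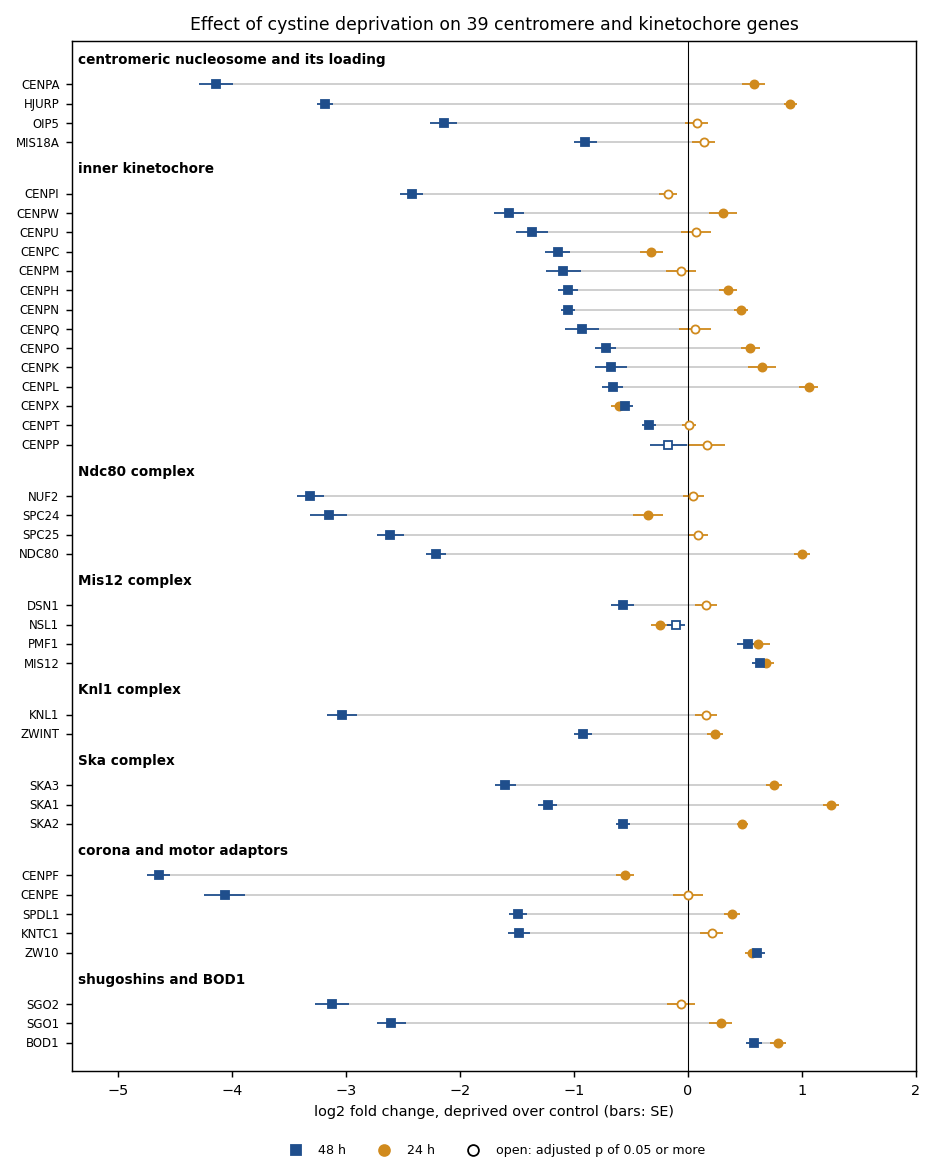
Log2 fold change of deprived over control cells for the 39 genes, grouped by role, at 48 h (squares) and 24 h (circles), with bars for the SE of a fit on 3 samples per group and open symbols for an adjusted p of 0.05 or more. The squares of 33 genes lie left of 0 as calls, down to -4.64 for CENPF, while the circles lie between -0.60 (CENPX) and 1.26 (SKA1).

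Since most of these genes moved together at 48 h, their promoters were set beside that result. In cell cycle genes of vertebrates, a short element called the cell cycle genes homology region (CHR), near the transcription start, is bound by the MuvB core of the DREAM and B-MYB complexes, and CCAAT boxes upstream of it are bound by NF-Y. RefSeq's promoter table (GRCh38.p14, 250 bases before to 50 after each start) held 39 promoters of 33 of the 39 genes; the other genes, CENPH, CENPM, KNTC1, CENPL, MIS18A and KNL1, are named only. The letters searched, on both strands and with overlaps allowed, were TTTGAA or TTCGAA for the CHR, CCAAT for the CCAAT box and TTTNNCGC for an E2F-like site. Shown first are the genes with the 3 most negative fold changes at 48 h, CENPF (chr1:214602945-214603244, + strand), CENPA (chr2:26785806-26786105, + strand) and CENPE (chr4:103198294-103198593, - strand), 5′ to 3′ with CHR and CCAAT letters of either strand in capitals:
CENPF: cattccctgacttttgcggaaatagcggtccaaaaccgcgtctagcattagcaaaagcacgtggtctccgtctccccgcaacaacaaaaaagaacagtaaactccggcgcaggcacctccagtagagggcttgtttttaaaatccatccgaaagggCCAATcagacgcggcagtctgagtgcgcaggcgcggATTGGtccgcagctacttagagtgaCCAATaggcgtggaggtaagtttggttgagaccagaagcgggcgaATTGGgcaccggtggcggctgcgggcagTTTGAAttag
CENPA: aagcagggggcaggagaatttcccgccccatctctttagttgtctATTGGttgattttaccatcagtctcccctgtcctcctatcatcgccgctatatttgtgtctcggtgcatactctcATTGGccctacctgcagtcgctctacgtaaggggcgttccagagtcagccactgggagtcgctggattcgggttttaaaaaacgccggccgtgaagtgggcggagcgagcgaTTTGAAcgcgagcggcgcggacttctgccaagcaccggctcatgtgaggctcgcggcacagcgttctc
CENPE: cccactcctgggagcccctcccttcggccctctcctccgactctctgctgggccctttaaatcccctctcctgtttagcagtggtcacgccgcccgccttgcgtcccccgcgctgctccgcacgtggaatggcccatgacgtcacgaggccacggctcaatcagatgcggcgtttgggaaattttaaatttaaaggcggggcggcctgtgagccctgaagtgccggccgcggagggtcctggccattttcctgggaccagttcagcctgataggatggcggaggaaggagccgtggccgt

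CENPF's window held 4 CCAAT boxes and, beginning 41 bases into the transcript, the letters TTTGAA. CENPA's held 2 CCAAT boxes and TTTGAA from 18 bases before the start. CENPE's window, from a gene that fell nearly as far, held neither set of letters, so the match is not shared by all of the genes that fell most. The genes with the 3 most positive fold changes at 48 h follow in the same form, MIS12 (chr17:5486124-5486423, + strand, the first of 2 windows listed for it), ZW10 (chr11:113773643-113773942, - strand) and BOD1 (chr5:173616601-173616900, - strand):
MIS12: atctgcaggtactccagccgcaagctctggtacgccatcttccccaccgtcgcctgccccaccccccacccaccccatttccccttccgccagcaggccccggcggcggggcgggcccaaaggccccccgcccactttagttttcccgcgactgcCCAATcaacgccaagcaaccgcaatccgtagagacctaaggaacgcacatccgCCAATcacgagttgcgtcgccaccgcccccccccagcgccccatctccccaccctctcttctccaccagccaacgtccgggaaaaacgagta
ZW10: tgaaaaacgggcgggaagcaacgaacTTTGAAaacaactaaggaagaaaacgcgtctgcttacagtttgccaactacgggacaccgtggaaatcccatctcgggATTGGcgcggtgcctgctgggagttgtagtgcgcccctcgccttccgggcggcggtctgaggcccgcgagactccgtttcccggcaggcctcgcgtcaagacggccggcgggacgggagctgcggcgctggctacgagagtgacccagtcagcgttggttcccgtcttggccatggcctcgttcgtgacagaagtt
BOD1: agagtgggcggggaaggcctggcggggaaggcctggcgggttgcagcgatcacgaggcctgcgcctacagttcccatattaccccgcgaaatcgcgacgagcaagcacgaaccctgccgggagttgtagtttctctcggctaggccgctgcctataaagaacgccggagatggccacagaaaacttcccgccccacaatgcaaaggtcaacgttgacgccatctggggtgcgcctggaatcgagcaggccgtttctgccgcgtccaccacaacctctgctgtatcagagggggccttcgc

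MIS12's window held 2 CCAAT boxes and no CHR letters, and BOD1's held neither. ZW10's held TTTGAA 224 bases before the start and 1 CCAAT box. Over the promoters of genes called lower at 48 h, 17 of 30 (56.7%) held CHR letters, against 1 of 9 (11.1%) of the promoters of the genes not called lower and 1941 of 16486 (11.8%) of the promoters of all tested genes. The 30 promoters came from 27 genes, the 9 from only 6 genes and the 16486 from 11380 genes. Genes with several windows were thus counted several times in these shares. CCAAT was found in 66.7% of the promoters of the lower genes, in 55.6% of those of the genes not lower and in 34.6% of those of all tested genes. The E2F-like letters were found in 16.7%, 33.3% and 9.49% in the same order. CHR and CCAAT letters together were found in 40% of the promoters of the lower genes, in 11.1% of those of the genes not lower and in 4.74% of those of all tested genes. In the whole table of 35116 promoters, 16.4% held CHR letters, 34.6% CCAAT and 6.89% the E2F-like letters. Among the promoters of lower genes, the CHR share was 61.5% of 13 where the gene was at least 4-fold lower and 52.9% of 17 where it was lower by less.

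CHR letters within 50 bases of the start were in 15 of 30 promoters of the lower genes (50%), in 0 of 9 promoters of the genes not lower and in 567 of 16486 promoters of all tested genes (3.44%). By gene, they were in 14 of 27 lower genes, 0 of 6 genes not lower and 539 of 11380 tested genes. In 6 of the lower genes CHR letters lay within 5 bases of the start. From each of these, 60 bases, 30 before the start and 30 from it, are shown because they place the element. These windows were chosen after the values were seen. They are SPC25 (chr2:168890401-168890460, - strand), SGO1 (chr3:20186177-20186236, - strand), NDC80 (chr18:2571527-2571586, + strand), OIP5 (chr15:41332562-41332621, - strand), SKA3 (chr13:21176523-21176582, - strand) and CENPN (chr16:81007184-81007243, + strand), with only the CHR letters of either strand in capitals:
SPC25: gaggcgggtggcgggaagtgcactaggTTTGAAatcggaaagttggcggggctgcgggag
SGO1: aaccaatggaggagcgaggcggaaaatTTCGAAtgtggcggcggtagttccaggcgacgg
NDC80: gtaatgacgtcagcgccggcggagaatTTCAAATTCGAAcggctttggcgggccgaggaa
OIP5: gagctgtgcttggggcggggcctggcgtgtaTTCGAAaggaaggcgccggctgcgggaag
SKA3: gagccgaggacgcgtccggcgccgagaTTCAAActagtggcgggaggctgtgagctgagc
CENPN: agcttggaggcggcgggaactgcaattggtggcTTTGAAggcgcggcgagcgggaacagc

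SGO1 and OIP5 carried TTCGAA, which reads the same on both strands. NDC80 carried TTTGAA on the opposite strand directly followed by TTCGAA, and SKA3 carried TTTGAA on the opposite strand. All 6 genes were lower at 48 h, by 1.05 (CENPN) to 2.61 (SPC25) on the log2 scale. Most of the 33 genes with a promoter, 27 of them, were called lower at 48 h, so the calls of these 6 do not set them apart. A match of letters is a description of the sequence and shows neither binding nor a cause. RefSeq's start can differ from the outermost start of GENCODE, as it does for CENPA, CENPN and SPC25.

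**Figure D2:**
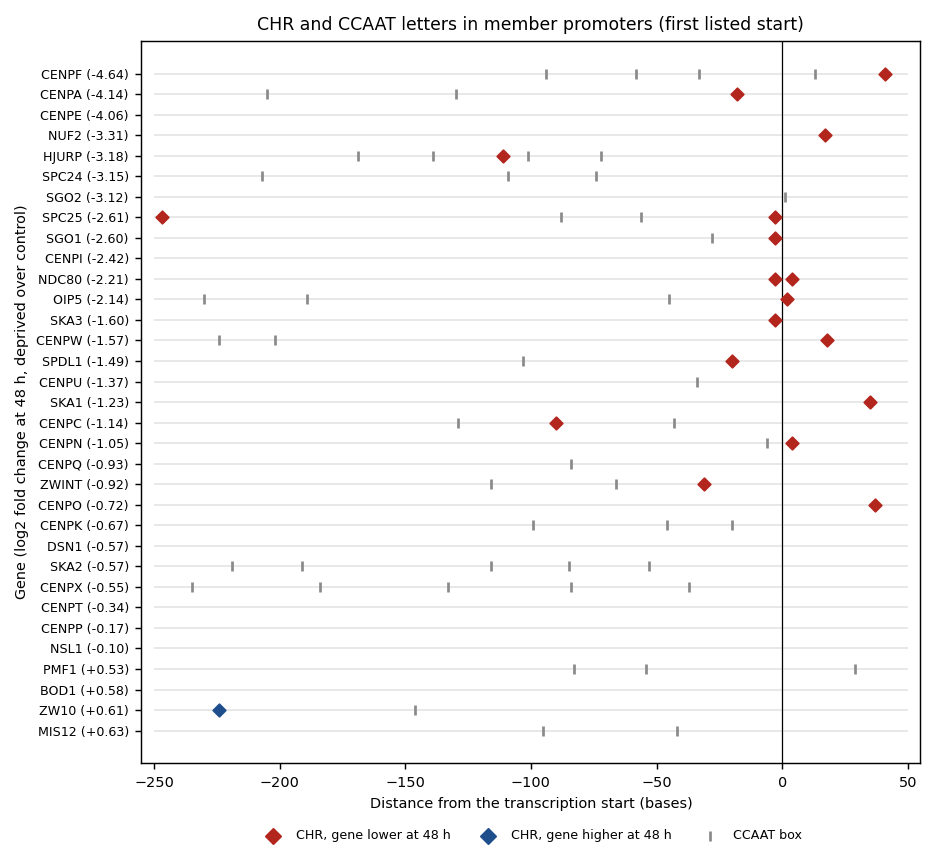
Positions of CHR letters (diamonds) and CCAAT boxes (ticks) relative to the RefSeq transcription start, in bases, for the first listed promoter of 33 genes, ordered by the log2 fold change at 48 h, deprived over control. Diamonds gather around the start in genes lower at 48 h, and the single one in a higher gene, ZW10, lies 224 bases upstream.

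The centromeric nucleosome and its loading factors are CENPA, its chaperone HJURP, and OIP5 and MIS18A, subunits of the Mis18 complex that marks where new CENP-A is placed. All 4 were lower at 48 h, with a median log2 fold change of -2.66, and at 24 h CENPA and HJURP were higher while OIP5 and MIS18A were not called. Over all genes tested the shares were 34.9% lower at 48 h and 28.8% higher at 24 h. HJURP (chr2:233833416-233854566, GRCh38) was at 9.16, 9.19 and 9.02 CPM in deprived cells and 76.8, 89.6 and 82 CPM in control cells at 48 h. At 24 h HJURP was at 118, 109 and 114 CPM in deprived cells and 58.1, 63.2 and 61.2 CPM in control cells. The deprived samples were thus all below the controls at 48 h and all above them at 24 h. HJURP's log2 fold change was -3.18 ± 0.07 at 48 h (SE; adjusted p = 1.77e-17 by edgeR's quasi-likelihood test) and 0.90 ± 0.06 at 24 h (adjusted p = 3.13e-10), and the difference between the times was -4.08 ± 0.10.

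CENPA (chr2:26764289-26801067) was at 1.8, 1.39 and 1.5 CPM in deprived cells and 25.5, 30.9 and 27.2 CPM in control cells at 48 h. Its values at 24 h were 32.6, 29.6 and 34.7 CPM in deprived cells and 19.6, 25.2 and 20 CPM in control cells. Neither time had an overlap, and the direction turned between them, with a log2 fold change of -4.14 ± 0.15 at 48 h (edgeR quasi-likelihood adjusted p = 8.35e-15) and 0.58 ± 0.10 at 24 h (adjusted p = 6.5e-05). The difference of -4.73 ± 0.18 was the most negative of the 39 genes. OIP5 averaged 3.22 ± 0.439 CPM in deprived cells and 14.2 ± 0.883 CPM in control cells at 48 h (SD, n = 3), and MIS18A 8.65 ± 0.59 CPM and 16.1 ± 0.619 CPM in the same groups. OIP5 shares 470 of its 1236 exon bases in GENCODE release 29 with OIP5-AS1 on the opposite strand, and CENPA shares 138 with SLC35F6 on its own strand. Strandedness, both of the libraries and of the counting, is not stated in the labels, and reads of such overlapping genes cannot be told apart.

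The 14 inner kinetochore genes encode CENP-C, which binds the CENP-A nucleosome and the Mis12 complex, and subunits of the constitutive centromere-associated network. At 48 h 13 of them were lower and CENPP was not called, with a median log2 fold change of -0.99 and a range of -2.42 to -0.17. At 24 h 6 were higher (CENPH, CENPK, CENPL, CENPN, CENPO and CENPW), CENPC and CENPX were lower and 6 were not called, with a median of 0.12. Shares over all genes tested were 34.9% lower at 48 h, and 28.8% higher and 26.9% lower at 24 h. Calls in either direction at 24 h came to 55.6% of all genes tested. The 24 h call of CENPC was lost without deprived replicate 3. That of CENPW was lost without deprived replicate 1 or 3 or control replicate 1. It was also lost under upper-quartile scaling, library totals alone and DESeq2. CENPI (chrX:101098218-101163681), a subunit that sits with CENP-H, CENP-K and CENP-M, was at 4.14, 4.13 and 3.37 CPM in deprived cells and 20.5, 21.3 and 20.6 CPM in control cells at 48 h. Its log2 fold change of -2.42 ± 0.10 (edgeR adjusted p = 6.86e-14) was the only one in this group past 4-fold. At 24 h it averaged 19.3 ± 0.434 CPM in deprived cells and 21.7 ± 1.5 CPM in control cells, which did not pass the threshold (edgeR adjusted p = 0.0882), but was called lower under upper-quartile scaling (adjusted p = 0.0189), library totals (0.0204) and without control replicate 3 of that time (0.0426).

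CENPN (chr16:81006498-81033114), which reads the CENP-A nucleosome together with its partner CENP-L, was at 20.6, 20.3 and 19.9 CPM in deprived cells and 38.9, 43.6 and 43.7 CPM in control cells at 48 h. After 24 h it was at 62.7, 59.6 and 60 CPM in deprived cells and 44.1, 45.2 and 42 CPM in control cells. The deprived values lay below every control at 48 h and above every control at 24 h. CENPL moved in the same order, at 13.6, 11.7 and 10.9 CPM in deprived cells and 19.3, 19.6 and 18.2 CPM in control cells at 48 h. At 24 h CENPL was at 40.3, 38.8 and 43.8 CPM in deprived cells and 20.1, 19.8 and 19.1 CPM in control cells. Its 2.09-fold higher level at 24 h was the second largest rise among the 39 genes, and its log2 fold change at 48 h was -0.66 ± 0.09.

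CENPW, CENPX and CENPT carry histone folds and form a DNA-binding assembly, and CENPT also recruits the Ndc80 complex. Their transcripts did not move alike. CENPW fell 2.98-fold at 48 h, CENPX was 1.47-fold lower at 48 h and 1.51-fold lower at 24 h, and CENPT was 1.27-fold lower at 48 h and not called at 24 h. CENPX averaged 32.8 ± 2.49 CPM in deprived cells and 48.2 ± 4.13 CPM in control cells at 48 h, and 33.5 ± 0.655 CPM in deprived cells and 50.7 ± 2.89 CPM in control cells at 24 h, and the difference between the times was not called (edgeR adjusted p = 0.785). CENPT averaged 34.3 ± 1.15 CPM in deprived cells at 48 h and 33.6 ± 1.6 CPM at 24 h. Its controls stood at 43.5 ± 1.48 CPM at 48 h and 33.4 ± 1.23 CPM at 24 h, a higher level at 48 h (edgeR adjusted p = 0.00019).

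CENPO, CENPP, CENPQ and CENPU belong to a subcomplex that binds Plk1 and microtubules. CENPU was 2.59-fold, CENPQ 1.9-fold and CENPO 1.65-fold lower at 48 h; CENPO shares 1488 of 5518 exon bases with ADCY3 on the opposite strand. CENPP (chr9:92325484-92620533) was at 3.79, 5.57 and 4.51 CPM in deprived cells and 4.43, 6.31 and 4.86 CPM in control cells at 48 h, and at 7.02, 6.48 and 6.51 CPM in deprived cells and 5.72, 5.6 and 6.41 CPM in control cells at 24 h. The groups overlapped at 48 h and lay apart by little at 24 h, with adjusted p = 0.371 at 48 h and adjusted p = 0.374 at 24 h by edgeR's quasi-likelihood test. CENPP shares 3719 of its 9794 exon bases with IPPK on the opposite strand, so part of its count may belong to that gene. CENPC, CENPH, CENPK and CENPM were 1.59-fold (CENPK) to 2.2-fold (CENPC) lower at 48 h.

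The Ndc80 complex, the main microtubule-binding unit of the kinetochore, is a rod with NDC80 and NUF2 at its outer end and SPC24 and SPC25 at its inner end. Its 4 genes were all at least 4-fold lower at 48 h, with a median log2 fold change of -2.88, while at 24 h NDC80 was higher, SPC24 lower and the other two not called. At least 4-fold lower at 48 h were 5.19% of all genes tested, and at 24 h 28.8% were higher and 26.9% lower. NUF2 (chr1:163266576-163355764) was at 5.5, 3.48 and 4.42 CPM in deprived cells and 44, 45.8 and 43.8 CPM in control cells at 48 h. NDC80 (chr18:2571511-2616635) was at 10.2, 7.75 and 9.52 CPM in deprived cells and 42.4, 42.9 and 41.6 CPM in control cells at 48 h. Both were below every control, NUF2 by 9.93-fold (edgeR adjusted p = 1.43e-14) and NDC80 by 4.62-fold (adjusted p = 4.48e-14).

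At 24 h these partners differed. NDC80 was at 91.5, 85.8 and 80.1 CPM in deprived cells and 40.5, 45.5 and 42.3 CPM in control cells, a 2-fold higher level. NUF2 was at 43.2, 42 and 34.8 CPM in deprived cells and 41.8, 38.1 and 35.6 CPM in control cells, and the groups overlapped. SPC24 averaged 12.2 ± 0.111 CPM in deprived cells and 15.6 ± 0.61 CPM in control cells at 24 h, a fall by 0.35 on the log2 scale (adjusted p = 0.025 by edgeR) that did not pass without deprived replicate 1, 2 or 3 or control replicate 2 of that time. At 48 h SPC24 averaged 2.09 ± 0.217 CPM in deprived cells and 18.6 ± 4 CPM in control cells. Per kilobase of deposited gene length, the highest and lowest of the 4 levels differed 1.89-fold in deprived cells and 2.12-fold in control cells at 48 h, and 2.64-fold in deprived cells and 1.71-fold in control cells at 24 h.

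The Mis12 complex (MIS12, PMF1, DSN1 and NSL1) joins the inner kinetochore to the Ndc80 and Knl1 complexes. While all genes of the Ndc80 and Knl1 complexes were lower at 48 h, here MIS12 and PMF1 were higher, DSN1 was lower and NSL1 was not called, with a median log2 fold change of 0.22. Among all genes tested, 34.9% were lower and 33.5% higher at 48 h. MIS12 (chr17:5486285-5490814) was at 33, 30.7 and 29.6 CPM in deprived cells and 19, 20.4 and 21.1 CPM in control cells at 48 h. After 24 h it stood at 33.6, 33.9 and 33.9 CPM in deprived cells and 21.7, 21.8 and 19.5 CPM in control cells. Deprived samples were above all controls at both times, by a log2 fold change of 0.63 ± 0.07 at 48 h (edgeR adjusted p = 2.27e-07) and 0.69 ± 0.07 at 24 h (adjusted p = 1.43e-07), and the difference between the times was not called (adjusted p = 0.685). MIS12 shares 301 of 3157 exon bases with DERL2 on the opposite strand.

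PMF1 (chr1:156212993-156240042) was at 27.2, 33.5 and 27.1 CPM in deprived cells and 18.4, 22.1 and 20.3 CPM in control cells at 48 h, and at 30.3, 32.2 and 31.6 CPM in deprived cells and 18.1, 23.6 and 19.7 CPM in control cells at 24 h. The groups were apart at both times, with log2 fold changes of 0.53 ± 0.10 at 48 h and 0.62 ± 0.10 at 24 h. PMF1 shares 587 of its 2520 exon bases with the read-through gene PMF1-BGLAP on the same strand, and its estimated counts were not whole numbers in any of the 12 samples, so its level depends on how reads were divided. DSN1 (chr20:36751791-36773818) was at 16.7, 14.8 and 12 CPM in deprived cells and 19.6, 22.1 and 22.9 CPM in control cells at 48 h, a 1.48-fold lower level. NSL1 (chr1:212726153-212791782) was at 23.2, 23.5 and 23.7 CPM in deprived cells and 25.6, 24.8 and 25 CPM in control cells at 48 h, without an overlap but with a log2 fold change of only -0.10 ± 0.08 (adjusted p = 0.3 by edgeR). At 24 h NSL1 was at 27.6, 21.2 and 23.9 CPM in deprived cells and 27.9, 29.8 and 28.1 CPM in control cells, a call (adjusted p = 0.0173) that was lost without deprived replicate 2 or control replicate 2 of that time.

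KNL1 is the scaffold that recruits the BUB1 and BUB3 checkpoint proteins, and ZWINT binds it and the corona. KNL1 (chr15:40594020-40664342) was at 10.9, 7.75 and 6.15 CPM in deprived cells and 76.3, 59.3 and 68.3 CPM in control cells at 48 h. ZWINT (chr10:56357228-56361275) was at 18, 16.9 and 13.9 CPM in deprived cells and 29.4, 32.3 and 30.8 CPM in control cells. Both were lower in every deprived sample, KNL1 by 8.19-fold and ZWINT by 1.9-fold (edgeR adjusted p = 1.34e-13 and 7.36e-09). At 24 h KNL1 averaged 72.9 ± 3.13 CPM in deprived cells and 65.1 ± 3.04 CPM in control cells. KNL1 was not called there, except as higher in the fit of only the compared groups (edgeR adjusted p = 0.0199). ZWINT averaged 50.1 ± 2.28 CPM in deprived cells and 42.4 ± 1.37 CPM in control cells at 24 h. It was higher by 0.24 ± 0.07 on the log2 scale, a call lost under upper-quartile scaling and library totals alone.

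The Ska complex follows the ends of microtubules and holds kinetochores to them. Its 3 genes were all lower at 48 h, with a median log2 fold change of -1.23, and all higher at 24 h, with a median of 0.76, the highest 24 h median of the 8 role groups. Among all genes tested, 34.9% were lower at 48 h and 28.8% higher at 24 h. SKA1 (chr18:50374995-50394173) was at 7.22, 7.79 and 6.92 CPM in deprived cells and 16.6, 17.5 and 17.4 CPM in control cells at 48 h. At 24 h SKA1 was at 48, 46.2 and 45.8 CPM in deprived cells and 19.7, 18.3 and 20.3 CPM in control cells. No deprived value fell among the controls at either time, and the 2.4-fold higher level at 24 h (edgeR adjusted p = 1.88e-11) was the largest rise of the 39 genes.

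SKA3 (chr13:21153595-21176602) was at 9.55, 8.17 and 9.02 CPM in deprived cells and 24.3, 27.1 and 29.8 CPM in control cells at 48 h, and at 55.1, 52.6 and 55.3 CPM in deprived cells and 31.7, 33.1 and 31.8 CPM in control cells at 24 h. Its groups were apart in opposite directions, with a difference between the times of -2.36 ± 0.11. SKA2 moved less, to 33 ± 1.61 CPM in deprived cells against 48.9 ± 1.35 CPM in control cells at 48 h, and 71.3 ± 1.84 CPM in deprived cells against 51 ± 1.22 CPM in control cells at 24 h. Per kilobase, the highest and lowest of the 3 levels differed 3.79-fold in deprived cells and 1.86-fold in control cells at 48 h, with SKA2 highest in deprived cells, while in control cells SKA1 at 17.5 ± 0.494 and SKA2 at 17.4 ± 0.482 CPM per kb differed by less than their spread.

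The fibrous corona holds motors and checkpoint proteins on unattached kinetochores. CENPF binds microtubules and recruits dynein regulators, CENPE is a plus-end-directed kinesin, ZW10 and KNTC1 belong to the RZZ complex, and SPDL1 (Spindly) joins that complex to dynein. CENPF (chr1:214603195-214664588) was at 21, 18 and 18.5 CPM in deprived cells and 552, 404 and 476 CPM in control cells at 48 h, and at 314, 314 and 301 CPM in deprived cells and 467, 454 and 434 CPM in control cells at 24 h. CENPF was already lower in every deprived sample at 24 h, by 0.55 ± 0.08 on the log2 scale, and by 4.64 ± 0.10 at 48 h (edgeR adjusted p = 5.71e-18), where its fall was the largest of the 39.

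CENPE (chr4:103105806-103198409) was at 5.41, 2.83 and 3.28 CPM in deprived cells and 77.2, 49.4 and 66.9 CPM in control cells at 48 h. After 24 h CENPE was at 66, 70.5 and 61.3 CPM in deprived cells and 74, 61.4 and 62.1 CPM in control cells. The groups were far apart at 48 h and overlapped at 24 h, where the log2 fold change was 0.00 ± 0.13 and its sign changed with the scaling. SPDL1 and KNTC1 were 2.8-fold and 2.79-fold lower at 48 h, and at 24 h SPDL1 was 1.31-fold higher and KNTC1 was not called, although 5 of the alternatives tried called it higher.

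ZW10 (chr11:113733187-113773811), which also acts in membrane traffic between the endoplasmic reticulum and the Golgi, was at 30.2, 32.6 and 32.6 CPM in deprived cells and 20.2, 20.5 and 21.7 CPM in control cells at 48 h. At 24 h it was at 38.3, 36 and 36.7 CPM in deprived cells and 24.6, 25.9 and 25 CPM in control cells. Every deprived sample was above every control at both times, by 0.61 ± 0.07 at 48 h (edgeR adjusted p = 8.7e-08) and 0.56 ± 0.06 at 24 h (adjusted p = 5.54e-07) on the log2 scale. Its RZZ partner KNTC1 was at 31, 22.1 and 20.8 CPM in deprived cells and 69.9, 65.6 and 71 CPM in control cells at 48 h, in the opposite direction.

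SGO1 and SGO2 are the shugoshins, which bring the phosphatase PP2A to centromeres to protect cohesin, and BOD1 is an inhibitor of PP2A with the B56 subunit. SGO2 (chr2:200510008-200583782) was at 7.44, 3.34 and 5.24 CPM in deprived cells and 49.1, 42.2 and 49.1 CPM in control cells at 48 h. SGO1 (chr3:20160593-20186292) was at 3.04, 2.27 and 2.91 CPM in deprived cells and 15.8, 16.7 and 17.6 CPM in control cells. Both shugoshins were below all controls, SGO2 by 8.72-fold and SGO1 by 6.06-fold (edgeR adjusted p = 5.82e-13 and 1.1e-12). At 24 h SGO1 averaged 19.8 ± 1.7 CPM in deprived cells and 16.2 ± 1.82 CPM in control cells, a call (adjusted p = 0.0222) that was lost without control replicate 2 or 3 or deprived replicate 1 of that time, and SGO2 was not called. The 24 h call of SGO1 was also lost under upper-quartile scaling and library totals alone. SGO1 shares 679 of 3828 exon bases with SGO1-AS1 on the opposite strand.

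BOD1 (chr5:173607514-173616660) was at 62, 59 and 68.3 CPM in deprived cells and 39.6, 45 and 42.2 CPM in control cells at 48 h. At 24 h it was at 72.7, 66.7 and 66.9 CPM in deprived cells and 40, 38.4 and 40.8 CPM in control cells. Deprived samples were above all controls at both times, with a log2 fold change of 0.58 ± 0.07 at 48 h (edgeR adjusted p = 2.46e-07) and 0.79 ± 0.07 at 24 h (adjusted p = 9.22e-09). GENCODE lists pseudogene copies of BOD1, CENPC, CENPI, CENPU, SKA2 and SGO1, with which reads of these genes may have been shared.

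**Figure D3:**
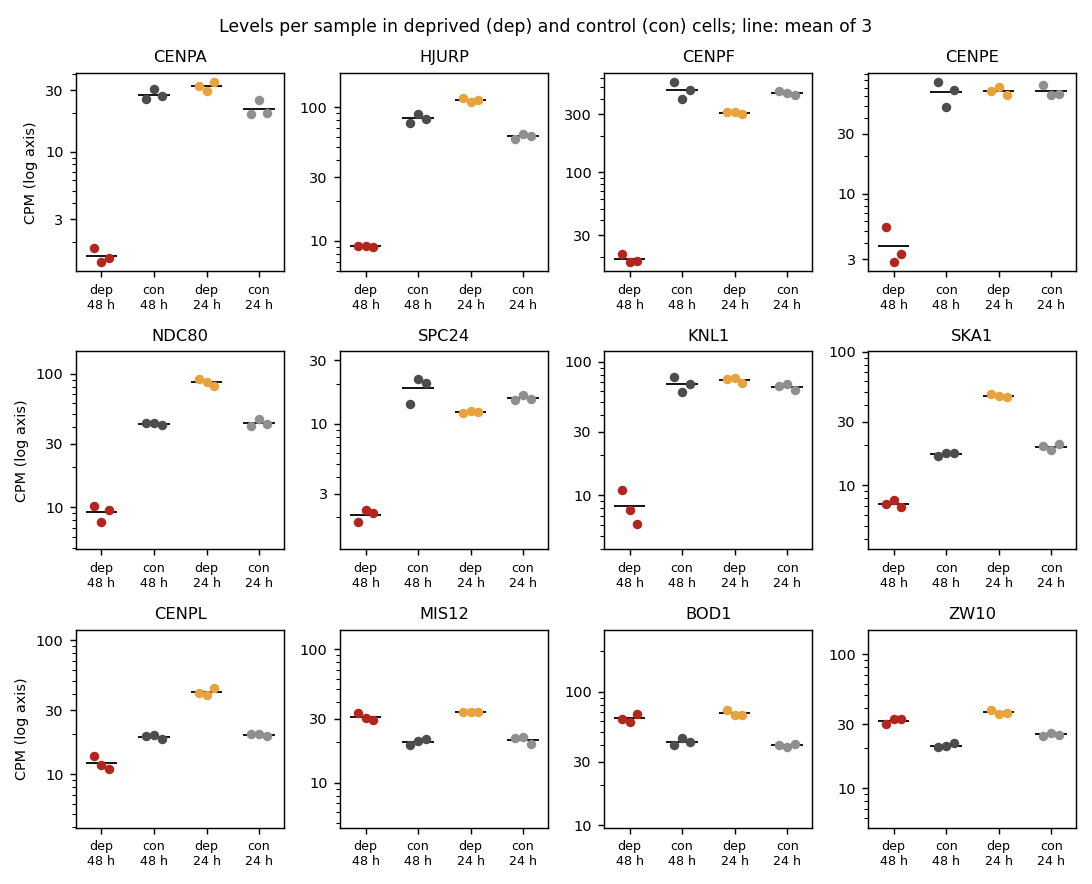
CPM per sample on a log axis whose limits differ between panels, for 12 of the 39 genes in deprived (dep) and control (con) cells at 48 h and 24 h, with a line at the mean of 3. CENPA, HJURP, NDC80, SKA1 and CENPL lie below the controls at 48 h and above them at 24 h, while MIS12, BOD1 and ZW10 lie above them at both times.

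The times were also compared within each medium, where most of the genes fell in deprived cells and most had no call in control cells. In deprived cells 33 of the 39 were lower at 48 h than at 24 h, against 21.8% of all genes, and 0 were higher, against 20.7% (edgeR; 0 also at an unadjusted p under 0.05 and by DESeq2). The median was -1.66, against 0 over all genes. The 6 without a call were CENPT, CENPX, MIS12, NSL1, PMF1 and BOD1. In control cells 5 of the 39 were higher at 48 h than at 24 h (CENPA, HJURP, CENPH, CENPT and KNTC1), against 12.7% of all genes, and 5 were lower (CENPM, CENPO, ZWINT, SKA3 and ZW10), against 10.4%, with a median log2 fold change of -0.02. Scaling by library totals alone gave 4 higher and 8 lower. Without control replicate 1 or 3 of 24 h, 3 were higher, and CENPA and KNTC1 were not called. KNTC1 also lost its call without control replicate 2 of 24 h, without control replicate 1 or 3 of 48 h and with library totals. CENPA also lost its call without control replicate 2 of 48 h. The call of SKA3 was lost without control replicate 2 of 24 h and without control replicate 1 or 2 of 48 h. The most negative was CENPM at -0.68 and the most positive HJURP at 0.44. These time comparisons use the same samples and the same 4 group means as the comparisons of media and the test of the difference. The results are therefore tied to each other and are not separate evidence.

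Levels of different genes were set side by side only per kilobase of deposited gene length. In deprived cells at 48 h CENPX was first, at 41.1 ± 3.12, followed by PMF1 at 33.1 ± 4.12 and BOD1 at 32.9 ± 2.49 CPM per kb (SD, n = 3), which differed by less than their spread. CENPE was last, at 0.45 ± 0.162 CPM per kb, within the spread of CENPP at 0.557 ± 0.108. In control cells at 48 h the highest were CENPX at 60.4 ± 5.17, CENPF at 46.4 ± 7.2 and SPC24 at 29.4 ± 6.32 CPM per kb, and the lowest CENPP at 0.627 ± 0.118, NSL1 at 1.91 ± 0.0333 and CENPC at 2.99 ± 0.25 CPM per kb. CENPF stood at rank 30 of 39 in deprived cells and at rank 2 in control cells. NSL1's deposited length of 13115 bases exceeds the 4091 exon bases of GENCODE release 29, so its level per kb is uncertain.

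**Figure D4:**
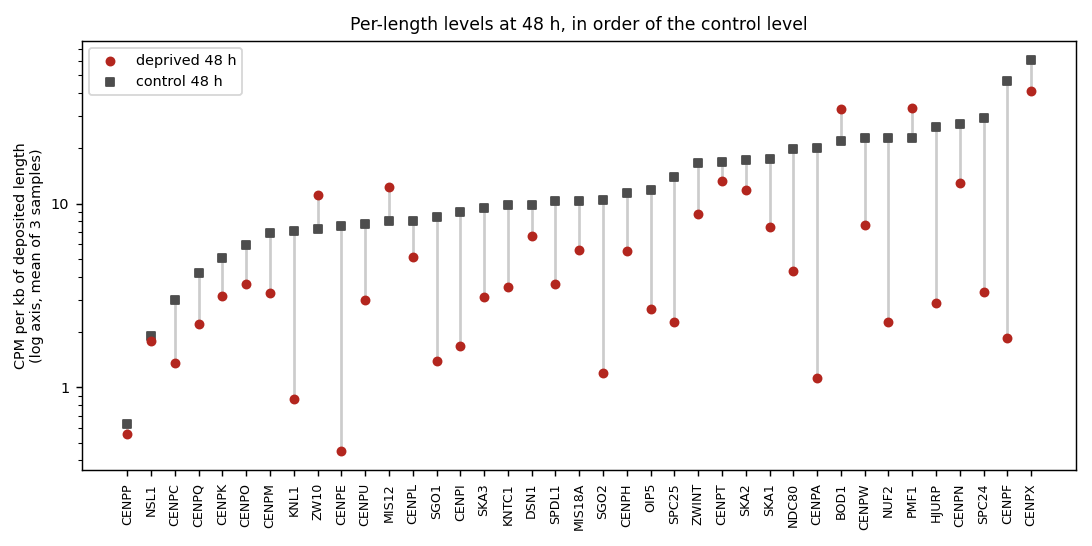
Mean level per kb of deposited gene length at 48 h in deprived (circles) and control (squares) cells for the 39 genes, on a log axis, each a mean of 3 samples, ordered by the control level. The circles of MIS12, ZW10, BOD1 and PMF1 lie above their squares, and those of CENPF, CENPA and CENPE lie furthest below.

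By deposited length 7 genes had 6 kb or more, among them NSL1, whose length is uncertain. For these 7, deprived replicate 1 at 48 h lay above the mean of its group by a median of 0.22 on the log2 scale. Replicate 3 lay below it by 0.15. Such a spread can be seen for KNL1, CENPE and KNTC1. In control cells at 48 h, replicate 1 also lay above its group mean for these 7 genes, by 0.13, and replicate 2 below it by 0.09. For the other 32 genes the median of replicate 1 at 48 h was 0.08 in deprived cells and -0.07 in control cells. The median log2 fold change of all genes at 48 h lay between -0.12 and 0.01 in the 5 length classes. That of the 39 genes lay between -3.12 and -0.66 in the same classes. The -3.12 came from the class of 3 to 6 kb, which held only 3 of the 39.

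Further lists placed these genes among their neighbours. Of 28 other kinetochore and checkpoint genes, 20 were lower and 5 higher at 48 h, with a median log2 fold change of -1.72, and 1 was lower and 18 higher at 24 h, with a median of 0.27. Over all genes tested, 34.9% were lower and 33.5% higher at 48 h, and 26.9% were lower and 28.8% higher at 24 h. The pattern of lower at 48 h after higher at 24 h was shared by 12 of these 28, against 2.08% of all genes tested. BUB1, a checkpoint kinase bound to KNL1, averaged 12.2 ± 0.882 CPM in deprived cells and 152 ± 7.76 CPM in control cells at 48 h. BUB1B, its relative in the checkpoint complex, was 9.33-fold lower, CDC20, the activator that this complex holds back, 8.61-fold lower, and SPAG5, a spindle protein, 7.66-fold lower. At 24 h CDC20 was 1.82-fold higher and the other 3 were not called. The 5 genes higher at 48 h were CLASP1 and CLASP2, which stabilise microtubules, ZWILCH, the other subunit of the RZZ complex, MAD2L1BP, which helps to silence the checkpoint, and MAD1L1, which anchors MAD2. Their log2 fold changes were 0.57 ± 0.06, 0.18 ± 0.07, 0.21 ± 0.08, 0.24 ± 0.08 and 0.96 ± 0.28 in that order. CENPB, which binds a sequence motif of centromeric satellite DNA, was not called at 48 h (log2 fold change 0.01 ± 0.07).

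Genes of S phase made up another list. Of 32 listed, 18 were lower and 9 higher at 48 h, with a median log2 fold change of -0.42, and 16 were lower and 9 higher at 24 h, with a median of -0.13. The shares over all genes tested were 34.9% lower and 33.5% higher at 48 h, and 26.9% lower and 28.8% higher at 24 h. The pattern of lower at 48 h after higher at 24 h was found in 3 of the 32, against 2.08% of all genes tested. No test was made of the difference between the lists.

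**Figure D5:**
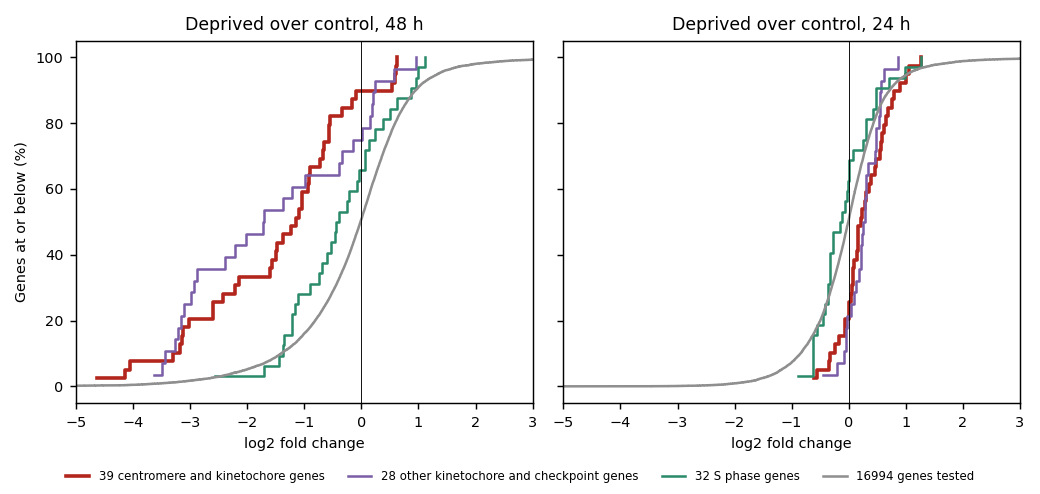
Share of genes at or below each log2 fold change, deprived over control, at 48 h (left) and 24 h (right), for the 39 genes, the 28 other kinetochore and checkpoint genes, the 32 S phase genes and all 16994 genes tested. At 48 h the curves of the first and second list run left of the curve of all genes (medians -1.14, -1.72 and -0.02), and at 24 h they run right of it in the middle (medians 0.21, 0.27 and -0.01).

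A list of 24 transcription regulators of the cell cycle also counted CDKN1A, the gene of a kinase inhibitor. Of these 24, 8 were lower and 12 higher at 48 h, and 3 were lower and 13 higher at 24 h. Calls over all genes tested stood at 34.9% lower and 33.5% higher at 48 h, and 26.9% lower and 28.8% higher at 24 h. The share of lower calls among the 24 regulators at 48 h was thus near that of all genes. FOXM1, a transcription factor of late cell cycle genes, was at 15.3, 15.4 and 14.8 CPM in deprived cells and 83.3, 90.5 and 80.1 CPM in control cells at 48 h. At 24 h FOXM1 was at 128, 128 and 126 CPM in deprived cells and 93.7, 85.9 and 92.4 CPM in control cells. It thus turned as HJURP and CENPA did, at -2.48 ± 0.06 at 48 h and 0.49 ± 0.05 at 24 h on the log2 scale. CDKN1A, which encodes the cyclin-dependent kinase inhibitor p21, was at 512, 599 and 626 CPM in deprived cells and 133, 158 and 142 CPM in control cells at 48 h. At 24 h CDKN1A was at 492, 514 and 501 CPM in deprived cells and 196, 198 and 209 CPM in control cells, so it was higher in every deprived sample at both times.

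The other regulators called lower at 48 h were TFDP2, a partner of E2F proteins (-1.06 ± 0.05), RBL2, the pocket protein p130 of the DREAM complex (-0.84 ± 0.05), MYBL2, which encodes B-MYB (-0.90 ± 0.09), E2F8 (-1.24 ± 0.13), E2F2 (-0.74 ± 0.12), NFYB, a subunit of NF-Y (-0.65 ± 0.09), and LIN9, a MuvB subunit (-0.47 ± 0.13), all as log2 fold change ± SE. The other MuvB subunits listed were higher at 48 h, LIN52 by 0.58 ± 0.11, LIN37 by 0.52 ± 0.13, LIN54 by 0.25 ± 0.07 and RBBP4 by 0.19 ± 0.05, as were the NF-Y subunits NFYC, by 0.22 ± 0.07, and NFYA, by 0.19 ± 0.06. The remaining higher regulators, besides CDKN1A, were E2F1, E2F3, E2F4, E2F5 and E2F6, by 0.22 (E2F3) to 0.55 (E2F4). TFDP2 and RBL2 were also lower at 24 h, by 0.83 and 0.59, and E2F8 was higher there, by 0.70. Transcript levels give no measure of the binding or activity of these proteins.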

How the data were processed

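RNA-seq of 12 HCT116 samples, 3 in each of 4 groups, was used, with groups and replicate numbers read from the sample titles. The deposited table gives estimated counts per gene, not normalized by the authors, and a gene length. The submitters' processing notes name fastp, HISAT, RSEM and GRCh38 without versions or roles, with annotation release and strandedness not given in the sources used here. Although a TPM table is mentioned in the labels, column totals differ from sample to sample, and the columns were read as estimated counts. Of 60987 rows, 316 lacked a gene name and were dropped; they held 0.748% to 1.65% of each sample's counts. Mitochondrial transcripts held 6.34% to 8.55%.

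Estimated counts were rounded. Genes passing filterByExpr (minimum count 10, minimum total 15) entered 1 fit of 4 group means in edgeR 4.0.16 (TMM, glmQLFit, glmQLFTest; R 4.3.3, limma 3.58.1), with 5 contrasts, Benjamini-Hochberg adjustment over 16994 genes and a threshold of 0.05. The SE is the size of the log2 fold change divided by the root of F, and the biological coefficient of variation was 6.4%. The fit was also run on simulated counts, drawn independently for each sample with few genes changed. That run does not cover data with as many calls as these or samples that are not independent. Replicates differed by more than sampling noise (chi-square per degree of freedom 2.95 to 7.86). At a tolerance of 0.005, 16 of the 39 genes had whole counts in all samples and 23 did not.

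The 39 genes, the role groups, the other lists and the named-gene rule were chosen with earlier results of these data known. The rule gave per-sample values for the 2 genes of each role group with the smallest adjusted p at 48 h and for each gene not lower at 48 h, and from the kinetochore and regulator lists the 4 smallest adjusted p values, the calls in the minority direction, FOXM1 and CDKN1A. CENPL, KNTC1, CENPB and the higher regulators besides CDKN1A were added after their values were seen. Coordinates are those of GENCODE release 29, which is not stated to be the authors' release, and promoters those of RefSeq. Alternatives were RLE and upper-quartile scaling, library totals alone, DESeq2 1.42.0, no filter, a filter at a mean of 5 CPM, a replicate block, a fit of the compared groups alone, and each sample left out.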

Additional observations from a re-analysis of the deposited data

Results flagged for a closer look

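For 32 of the 39 genes the effect of deprivation differed between the times by the test of the difference itself (edgeR's quasi-likelihood test, Benjamini-Hochberg adjusted p under 0.05), and in each of the 32 the effect at 48 h was the lower. By the same test, 19.2% of all genes tested were called lower and 16.4% higher. The values that follow are the log2 effect at 48 h minus that at 24 h. Among the centromeric nucleosome and its loading factors they were CENPA -4.73, HJURP -4.08, OIP5 -2.22 and MIS18A -1.03. In the inner kinetochore they were CENPI -2.25, CENPW -1.88, CENPL -1.72, CENPN -1.52, CENPU -1.44, CENPH -1.40, CENPK -1.32, CENPO -1.27, CENPM -1.03, CENPQ -0.98, CENPC -0.81 and CENPT -0.35. In the Ndc80 complex they were NUF2 -3.37, NDC80 -3.21, SPC24 -2.81 and SPC25 -2.69. The other outer complexes gave KNL1 -3.20 and ZWINT -1.16, SKA1 -2.50, SKA3 -2.36 and SKA2 -1.05, and DSN1 -0.72 as the only called gene of the Mis12 complex. The corona gave CENPF -4.09, CENPE -4.06, SPDL1 -1.88 and KNTC1 -1.69, and the shugoshins SGO2 -3.07 and SGO1 -2.89.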

How the results depend on the processing

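At 48 h the calls and directions of the 39 genes were the same under all alternatives run, including each of the 12 fits without 1 sample, and the median log2 fold change lay between -1.22 and -1.10. At 24 h the median lay between 0.13 and 0.26, with 16 to 21 genes higher. The number lower at 24 h, 5, came to between 3 and 6 when samples were left out, and was 3 without control 24 h replicate 2, deprived 24 h replicate 2 or deprived 24 h replicate 3. In control cells over time, library totals alone gave 8 lower genes, and the number higher, 5, came to between 3 and 5 with samples left out, with 3 without control 24 h replicate 1 or 3; CENPA, KNTC1 and SKA3 were the genes that lost their calls there. For these counts the cause was not tested.

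Signs that turned belonged to effects near 0 that were not called. At 24 h, upper-quartile scaling gave CENPQ -0.01, CENPT -0.06, NUF2 -0.02 and CENPE -0.07, and library totals gave CENPQ -0.02, CENPT -0.06, NUF2 -0.02 and CENPE -0.07. A mean of at least 5 CPM gave CENPT -0.01 and CENPE -0.02, and only the compared groups in the fit gave CENPE -0.01. With 1 sample left out, values lay between -0.05 and 0.1 for CENPE, -0.03 and 0.04 for CENPT and -0.15 and 0.03 for CENPM at 24 h, and between -0.02 and 0.09 for CENPX for the difference between the times. Calls gained at 24 h were CENPI as lower (upper-quartile scaling, library totals, without control 24 h replicate 3), KNTC1 as higher (no filter, only the compared groups, and without deprived 24 h replicate 3, deprived 48 h replicate 1 or deprived 48 h replicate 3) and KNL1 as higher (only the compared groups). BOD1's difference between the times was called, at -0.27 to -0.22, under 3 alternatives. CENPP's lower level in deprived cells over time was not called without deprived 48 h replicate 1 (edgeR adjusted p = 0.065). Over all genes, library totals gave 1697 higher and 2580 lower in control cells over time, against 2151 and 1760.

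Whether equal replicate numbers mark paired samples is not stated in the labels. After centring each group on its mean, correlations of same-numbered samples lay between -0.01 and 0.13 in the comparisons of media. Those of differently numbered samples lay between -0.12 and 0.07. The highest value, 0.13, was that of the samples numbered 1 at 48 h. With 3 samples per group, these values cannot settle whether the samples were paired. With the replicate number as a block, 33 of the 39 genes were lower and 4 higher at 48 h, and 5 were lower and 19 higher at 24 h, so the block changed none of these counts. Strandedness, the split of reads between overlapping genes and the counts of CENPA in deprived cells at 48 h, which were among the lowest, limit the precision of single values.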
